A study of Mus musculus with 9 samples.

Results

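The tumour necrosis factor (TNF) superfamily was followed through cultured mouse chondrocytes, the cells of cartilage, in an inflammatory setting. Its members here were the protein-coding genes whose symbol is a numbered Tnfsf (ligand) or Tnfrsf (receptor) name or one of Traf1 to Traf7 (adaptors), with Tnf, Fas, Ltbr, Cd40 and Cd27 added. This rule found 43 of the 56748 genes in the deposited table: 12 ligands, 5 receptors with a death domain, 3 decoy receptors, 16 receptors without a death domain and 7 TRAFs. RNA sequencing gave 3 libraries in each of 3 groups of wild-type cells, freed from knee cartilage with collagenase D and grown in DMEM with fetal bovine serum. The first group received interleukin-1β (IL-1β), a cytokine that provokes an inflammatory and matrix-degrading state in cartilage cells, plus SFRP5 made as a recombinant protein, a soluble frizzled-related factor that can bind Wnt ligands. The second received IL-1β alone, and the third was untreated control cells. The labels give no dose, duration, age or sex, and no group received SFRP5 alone, so an action of SFRP5 without IL-1β was not measured. Nothing in the labels says that the libraries of a group came from separate animals or cultures, so p-values cover only the variation among these libraries, and that variation may be technical.

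TNF superfamily ligands are mostly trimeric proteins, held in the membrane or shed from it, that bind receptors on neighbouring cells or on the same cell. Receptors with a death domain can recruit caspases and start cell death, receptors without one recruit TRAF adaptors that lead to NF-κB and MAP kinase signalling, and decoy receptors take up ligand without signalling. In joints the family is known for TNF itself, a target of arthritis therapy, and for the ligand RANKL with its decoy osteoprotegerin, which together govern the formation of osteoclasts, the cells that resorb bone.

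Total counts per library lay between 15795985 and 20688963, so that 3 counts corresponded to between 0.135 and 0.195 CPM (counts scaled to a common library size), and values at this level carry large counting error. All 10 chondrocyte markers had counts in every group, with summed levels of 27760 to 29080 CPM in IL-1β+SFRP5 libraries, 22120 to 23270 CPM in IL-1β libraries and 107000 to 109300 CPM in control libraries. Col2a1 made up most of these sums, at means of 20770, 15410 and 74500 CPM in the same groups. All 10 fell with IL-1β against control. With SFRP5 against IL-1β, Col2a1, Acan, Col11a1, Hapln1 and Comp rose, and Sox9, Col9a1, Col9a2, Matn3 and Chad were not called. Transcripts used as macrophage markers summed to 37.8 to 43.3 CPM with IL-1β and SFRP5, 55.5 to 59.7 CPM with IL-1β and 17.7 to 19.0 CPM in control, over 14 genes of which 6 had enough counts to be tested. Of these 6, Cd14, Mrc1, Cd68 and Csf1r rose with IL-1β against control, Laptm5 fell and Lyz2 was not called. With SFRP5 against IL-1β, Cd14, Mrc1 and Csf1r fell, and Cd68, Lyz2 and Laptm5 were not called. Cd14 averaged 18.6 CPM with IL-1β and SFRP5, 27.4 CPM with IL-1β and 1.25 CPM in control. The pan-leukocyte gene Ptprc averaged 0.120 CPM with IL-1β and SFRP5, 0.240 CPM with IL-1β and 0.0940 CPM in control, and the macrophage gene Adgre1 averaged 0.386 CPM with IL-1β and SFRP5, 0.397 CPM with IL-1β and 0.325 CPM in control. Neutrophil markers summed to 4.93 to 7.22 CPM with IL-1β and SFRP5, 5.89 to 7.46 CPM with IL-1β and 0 to 0.152 CPM in control, with S100a9, Ly6g and Csf3r at 0 throughout. Camp and S100a8, the only ones tested, made up most of the treated sums. Camp averaged 4.48 CPM with IL-1β and SFRP5, 5.20 CPM with IL-1β and 0.0169 CPM in control, and S100a8 1.40, 1.48 and 0 CPM in the same groups. Both rose with IL-1β against control and were not called with SFRP5 against IL-1β. They had enough counts to be tested in treated libraries only, which favoured these rises. Lymphocyte markers never exceeded 0.136 CPM in sum, and Cd3e, Cd3d, Cd8a, Ms4a1 and Nkg7 were at 0 in all 9 libraries. Synovial fibroblast markers summed to 294 to 304 CPM with IL-1β and SFRP5, 440 to 449 CPM with IL-1β and 131 to 135 CPM in control. Most of this sum was Pdpn, which averaged 231 CPM with IL-1β and SFRP5, 384 CPM with IL-1β and 34.3 CPM in control, and the 6 markers did not move together: Pdpn and Cd34 rose with IL-1β against control, while Thy1, Pdgfra and Dpp4 fell. Pdpn and Cd34 fell and Pdgfra rose with SFRP5 against IL-1β. Osteoblast and osteocyte markers summed to 2321 to 2512 CPM with IL-1β and SFRP5, 1866 to 1978 CPM with IL-1β and 5299 to 5466 CPM in control, most of it Col1a1, with Sost at 0 throughout and Dmp1 at 0 in treated libraries. Of these, Sp7 averaged 0.160 CPM with IL-1β and SFRP5, 0.118 CPM with IL-1β and 11.6 CPM in control, and Alpl 3.40, 2.73 and 45.7 CPM in the same groups. Both fell with IL-1β against control, as did Ibsp, Bglap and Col1a1, and Runx2 was not called. Sp7, Ibsp and Bglap had enough counts to be tested through the control libraries, which favoured their falls. With SFRP5 against IL-1β, Col1a1 rose and the other tested markers of this list were not called. Osteoclast markers summed to 105 to 119 CPM with IL-1β and SFRP5, 123 to 141 CPM with IL-1β and 106 to 108 CPM in control, most of it Ctsk, and Dcstamp was at 0 with IL-1β and SFRP5 and in control. Only Ctsk and Acp5 had enough counts to be tested, and both rose with IL-1β against control. With SFRP5 against IL-1β, Ctsk fell and Acp5 was not called. Acp5 averaged 8.34 CPM with IL-1β and SFRP5, 7.84 CPM with IL-1β and 4.01 CPM in control. Endothelial markers summed to 2.54 to 3.64 CPM with IL-1β and SFRP5, 3.75 to 4.68 CPM with IL-1β and 0.813 to 1.11 CPM in control, with Emcn at 0 throughout. Only Cdh5 and Tek were tested. Cdh5 averaged 0.794 CPM with IL-1β and SFRP5, 1.72 CPM with IL-1β and 0.0169 CPM in control, and Tek 1.80, 1.35 and 0.295 CPM in the same groups. Both rose with IL-1β against control, a direction favoured because only treated libraries had enough counts for testing. With SFRP5 against IL-1β, Cdh5 fell and Tek was not called. Many family members are also genes of immune cells, fibroblasts, bone cells or endothelium, and the part that such cells had in the values below was not tested. In these bulk libraries, fewer cells of a type and less RNA per cell cannot be told apart.

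Of the 43 members, 30 had enough counts to enter edgeR's quasi-likelihood test, in which a gene was called at a Benjamini-Hochberg adjusted p under 0.05 over all 15502 genes tested. When SFRP5 was added to IL-1β, 6 members rose and 12 fell against IL-1β alone, and 12 were not called. Over all tested genes, 15.6% rose and 15.7% fell in this comparison. The median log2 fold change was −0.12 over the 30 members and 0.01 over all tested genes. With IL-1β against control, 23 members rose, 5 fell and 2 were not called, where 38.5% of all tested genes rose and 40.4% fell. Here the median was 1.86 over the members and −0.03 over all tested genes. The comparisons share the IL-1β libraries, so a library value that raises a member in one lowers it in the other, and the values of both are given side by side without counting how they coincide. In IL-1β+SFRP5 libraries against control, 23 members rose and 5 fell, against 37.3% and 39.0% of all tested genes, with a median of 1.43 over the members and −0.02 over all tested genes. Upper-quartile scaling moved the median of all genes to −0.18 in IL-1β against control, and the changes below are on the TMM scale.

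These counts include members that could only be tested because one treatment raised them. A gene needed about 0.556 CPM in at least 3 libraries to be tested, and 9 of the 30 did not reach this in all 3 control libraries: Tnfsf4, Tnfsf11, Tnfsf15, Tnfsf18, Cd40, Tnfrsf8, Tnfrsf9, Tnfrsf19 and Tnfrsf26. Tnfsf4 and Tnfrsf8 reached it in the IL-1β libraries only, and Tnfrsf25 in the control libraries only, so that a difference in these members was built into their being tested. Tnfrsf14 reached it in 3 control libraries, 0 IL-1β libraries and 1 IL-1β+SFRP5 library. Tnfsf18 reached it in 3 IL-1β libraries, 1 IL-1β+SFRP5 library and 0 control libraries, and Cd40 in 3, 2 and 0. These members too were tested only through their highest group, which favoured the directions given below.

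**Figure D1:**
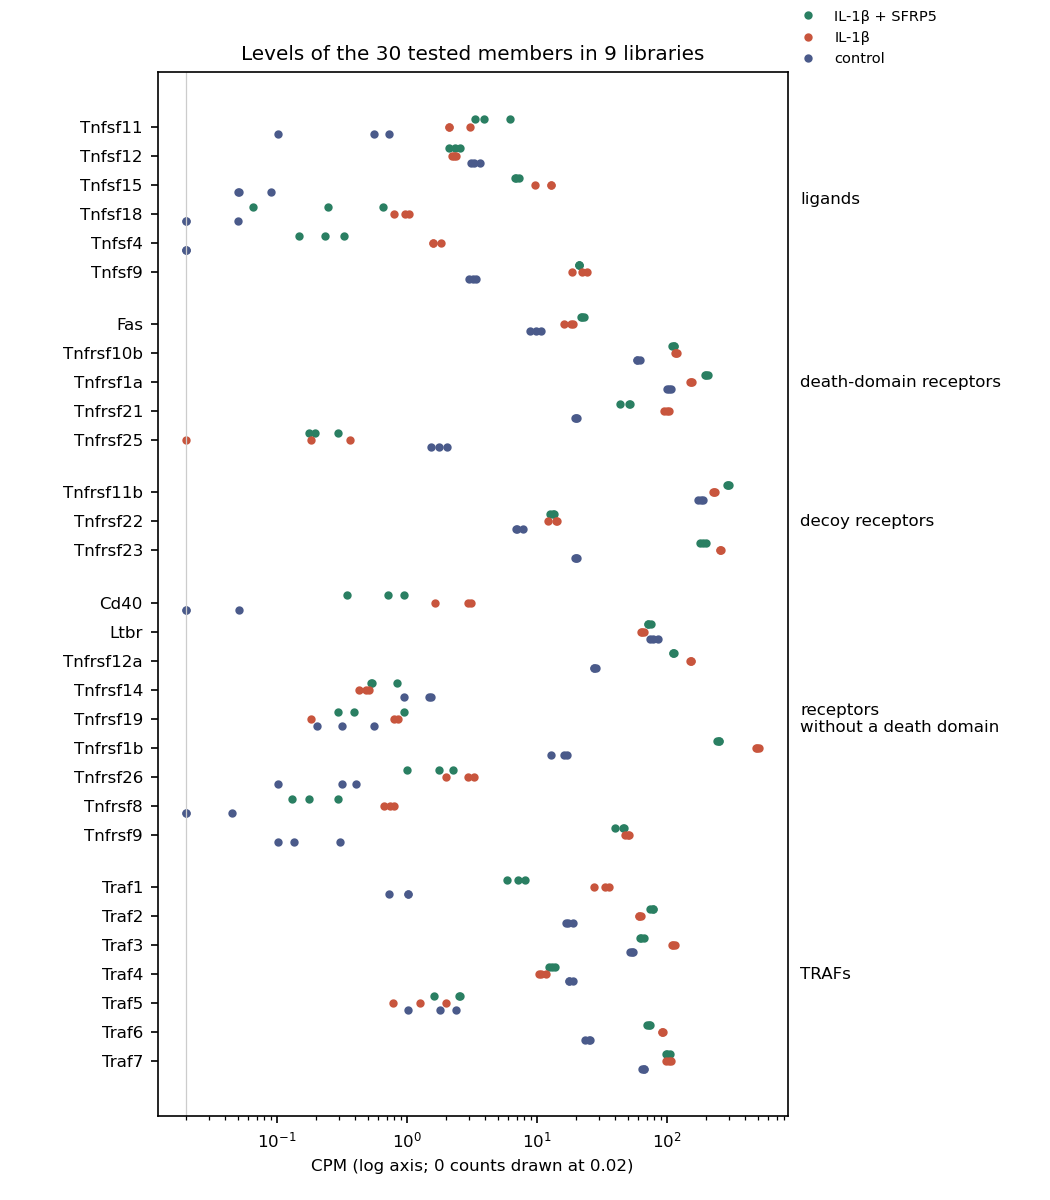
Level of each of the 30 tested members in each of the 9 libraries, in CPM on a log axis, grouped by role; each point is 1 library and libraries with 0 counts are drawn at 0.02. IL-1β points lie to the right of control points for most members, and the widest gaps are those of Tnfsf4, Tnfsf15, Cd40 and Tnfrsf9, whose control libraries held at most 0.303 CPM.

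**Figure D2:**
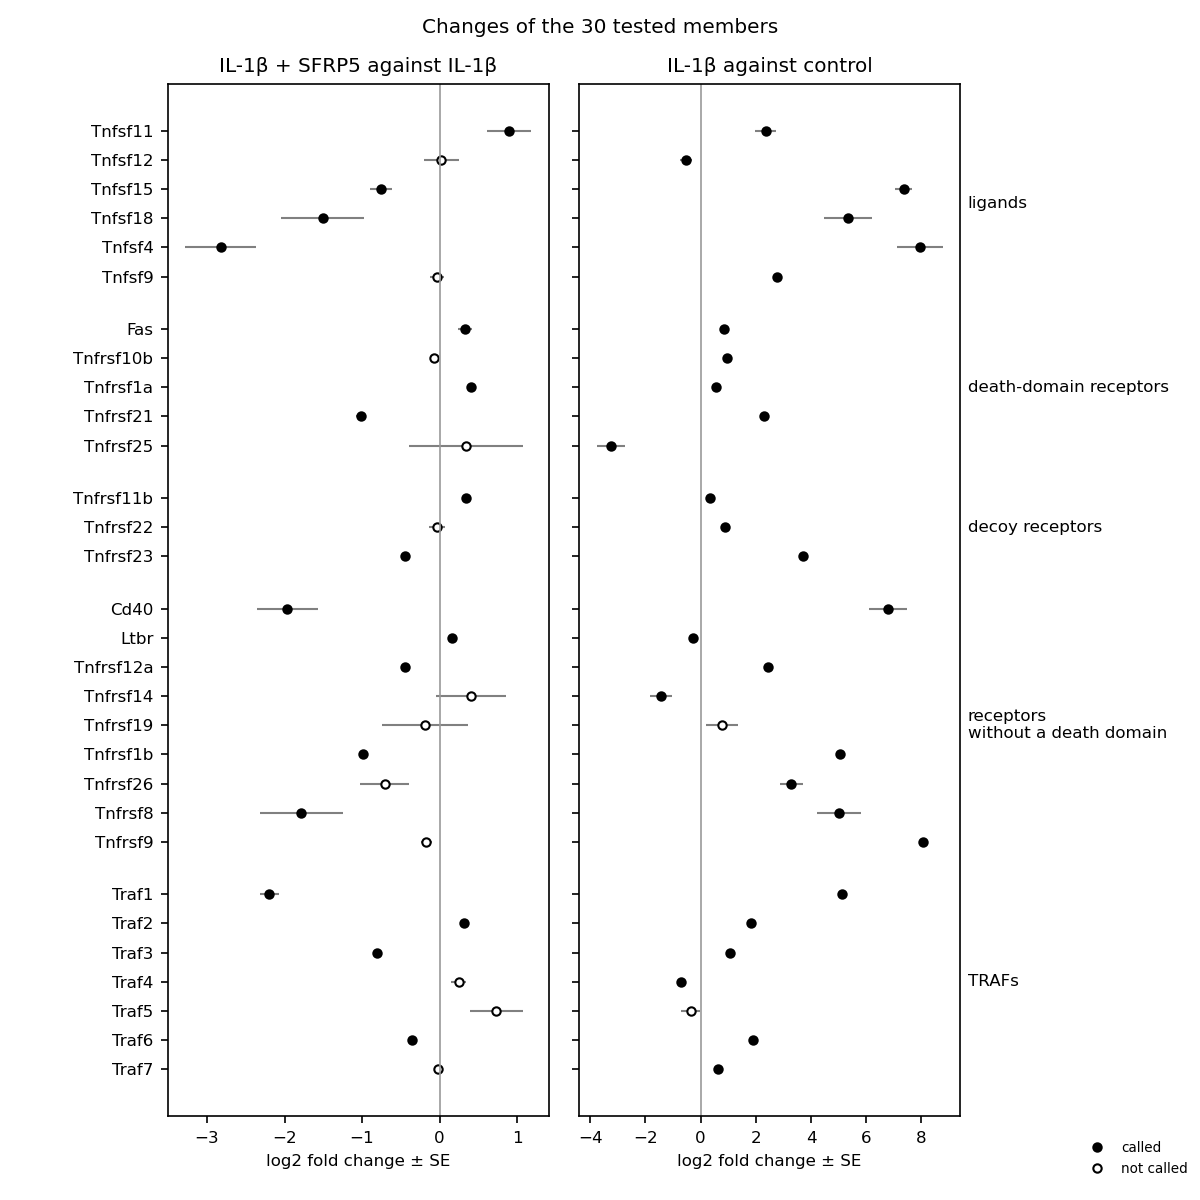
Fitted log2 fold change with its standard error for the 30 tested members, IL-1β+SFRP5 against IL-1β on the left and IL-1β against control on the right, with separate axes; filled points were called at an adjusted p under 0.05. Tnfsf4 lies lowest on the left at −2.82 and Tnfrsf9 highest on the right at 8.06; for Tnfsf4, Tnfsf18, Cd40 and Tnfrsf8, with 0 or 1 count in control, the fitted value on the right depends on the small count added in the fit.

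Among receptors and adaptors, levels were ordered per kilobase of gene length, since only that scale allows genes to be compared. With IL-1β and SFRP5, osteoprotegerin (Tnfrsf11b) stood first at a mean of 104.5 CPM per kb, ahead of TNF receptor 1 (Tnfrsf1a) at 77.97, TNF receptor 2 (Tnfrsf1b) at 65.5, the TWEAK receptor Fn14 (Tnfrsf12a) at 58.2 and Tnfrsf23 at 48.0 CPM per kb. With IL-1β alone, Tnfrsf1b led at 130.3 CPM per kb, followed by Tnfrsf11b at 82.3, Tnfrsf12a at 78.9, Tnfrsf23 at 65.2 and Tnfrsf1a at 59.0 CPM per kb. In control cells the order began with Tnfrsf11b at 64.5 CPM per kb, then Tnfrsf1a at 40.0, the lymphotoxin β receptor Ltbr at 33.7, Tnfrsf12a at 14.5 and Traf7 at 11.2 CPM per kb. Receptor genes held the first 4 places in every group. These orders are descriptions of group means and were not tested.

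Of the 12 ligands, 6 could be tested, of which 1 rose, 3 fell and 2 were not called with SFRP5, and 5 rose and 1 fell with IL-1β against control. Over all tested genes the shares were 15.6% and 15.7% with SFRP5 and 38.5% and 40.4% with IL-1β, and the counts by role, here and for the receptors and TRAFs, rest on few genes each and are descriptions. Tnf itself, the founding cytokine of the family, had 6, 1 and 4 counts in IL-1β+SFRP5 libraries, 3, 4 and 3 counts in IL-1β libraries and 0 counts in each control library. Its group sum was 10 counts with IL-1β and 11 counts with IL-1β and SFRP5. Allowing 3 counts for the control group put these sums 4.07-fold and 4.30-fold above control, without the counting error of the sums themselves. The Tnf transcript was thus near the limit of detection in every group, and it was too rare to be tested.

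Tnfsf4, which encodes OX40L, a costimulatory ligand for T cells, had 0.148, 0.325 and 0.236 CPM with IL-1β and SFRP5, 1.82, 1.57 and 1.59 CPM with IL-1β, and 0 CPM in all 3 control libraries. The 3 groups did not overlap. Its log2 fold change was −2.82 ± 0.46 (SE) with SFRP5 against IL-1β (edgeR, adjusted p = 3.83e-05). Its 84 counts with IL-1β against 0 in control made it 34.2-fold higher when 3 counts are allowed for control (edgeR, adjusted p = 8.05e-09). The IL-1β+SFRP5 libraries held 12 counts, 4.69-fold above control on the same terms. Both folds leave out the counting error of the treated group.

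Tnfsf15, which encodes TL1A, the ligand of the death receptor DR3, had 6.81, 7.22 and 6.84 CPM with IL-1β and SFRP5, 12.8, 12.7 and 9.68 CPM with IL-1β, and 0.0505, 0.0903 and 0.0508 CPM in control. Every IL-1β library lay above every IL-1β+SFRP5 library, and both groups lay far above control. The log2 fold change was −0.75 ± 0.14 with SFRP5 against IL-1β (edgeR, adjusted p = 1.68e-04) and 7.35 ± 0.30 with IL-1β against control (adjusted p = 1.47e-17).

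Tnfsf18, which encodes GITRL, the ligand of the T cell receptor GITR, was at 0.247, 0.0651 and 0.649 CPM with IL-1β and SFRP5, at 1.03, 0.969 and 0.797 CPM with IL-1β, and at 0.0505, 0 and 0 CPM in control. The IL-1β libraries were the highest, and the spread among IL-1β+SFRP5 libraries was wide. Its fall with SFRP5, −1.51 ± 0.53 on the log2 scale (edgeR, adjusted p = 0.0328), was lost when any 1 IL-1β library was left out, with adjusted p of 0.0928, 0.0828 and 0.0532 without libraries 1, 2 and 3. It was also lost without IL-1β+SFRP5 library 1 (0.134) or 2 (0.155). Against control, IL-1β libraries held 47 counts to 1, a ratio of 57.3 with a 95% counting interval of 9.80 to 2312.

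RANKL (Tnfsf11), the ligand that drives osteoclast formation, was at 6.16, 3.32 and 3.89 CPM with IL-1β and SFRP5, at 3.04, 2.12 and 2.11 CPM with IL-1β, and at 0.101, 0.722 and 0.559 CPM in control. The groups did not overlap, but the lowest IL-1β+SFRP5 library lay close to the highest IL-1β library. RANKL rose by 0.90 ± 0.29 on the log2 scale with SFRP5 against IL-1β (edgeR, adjusted p = 0.0183) and by 2.35 ± 0.39 with IL-1β against control (adjusted p = 7.56e-06). The first of these calls was lost without IL-1β+SFRP5 library 1 (adjusted p = 0.203) and without IL-1β library 2 (0.0675) or 3 (0.0643).

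Tnfsf9, which encodes the ligand of CD137 and costimulates T cells, was at 21.3, 21.0 and 21.2 CPM with IL-1β and SFRP5, at 24.1, 22.2 and 18.6 CPM with IL-1β, and at 3.38, 3.21 and 3.00 CPM in control. The IL-1β+SFRP5 libraries lay inside the range of the IL-1β libraries. The log2 fold change was −0.03 ± 0.09 with SFRP5 (edgeR, adjusted p = 0.828), and the gene rose by 2.76 ± 0.12 with IL-1β against control (adjusted p = 4.64e-17). An antisense long noncoding RNA, Gm11110, overlaps Tnfsf9 and had 213 to 322 counts in IL-1β+SFRP5 libraries, 240 to 258 counts in IL-1β libraries and 30 to 39 counts in control. Whether counting used the strand was not given in the sources, so reads of the pair cannot be told apart. Tnfsf12, which encodes TWEAK, the ligand of Fn14, fell by 0.53 ± 0.21 on the log2 scale with IL-1β against control (edgeR, adjusted p = 0.0236). It averaged 2.34 CPM with IL-1β and SFRP5, 2.31 CPM with IL-1β and 3.35 CPM in control. The call was lost without control library 2, without IL-1β library 1 or 2, in DESeq2 and without the low-count filter, where the adjusted p reached 0.0898. An antisense long noncoding RNA over Tnfsf12, Tnfsf13os, had 7 to 11 counts in IL-1β+SFRP5 libraries, 9 to 13 counts in IL-1β libraries and 33 to 44 counts in control, in the direction of the Tnfsf12 call, and reads of this pair cannot be told apart either.

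The 5 receptors with a death domain all had enough counts to be tested. With SFRP5 against IL-1β, Fas and Tnfrsf1a rose, Tnfrsf21 fell, and Tnfrsf10b and Tnfrsf25 were not called. With IL-1β against control 4 rose, and Tnfrsf25 fell. Fas, the receptor of Fas ligand, had 21.9, 22.3 and 22.9 CPM with IL-1β and SFRP5, 18.3, 16.2 and 18.8 CPM with IL-1β, and 9.90, 8.85 and 10.7 CPM in control. These 3 groups were ordered without overlap, with log2 fold changes of 0.33 ± 0.09 with SFRP5 (edgeR, adjusted p = 0.00528) and 0.86 ± 0.10 with IL-1β (adjusted p = 9.61e-09).

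TNF receptor 1 (Tnfrsf1a), the death-domain receptor through which soluble TNF mainly signals, was at 198, 209 and 199.7 CPM with IL-1β and SFRP5, at 152, 156 and 151 CPM with IL-1β, and at 103, 101 and 107 CPM in control. Again the groups did not overlap, and the IL-1β+SFRP5 libraries were the highest. It rose by 0.40 ± 0.04 on the log2 scale with SFRP5 against IL-1β (edgeR, adjusted p = 3.44e-08) and by 0.56 ± 0.04 with IL-1β against control (adjusted p = 7.84e-12).

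TNF receptor 2 (Tnfrsf1b), which lacks a death domain and is bound best by membrane TNF, was at 253, 245 and 253 CPM with IL-1β and SFRP5, at 510.1, 493 and 489 CPM with IL-1β, and at 16.9, 12.7 and 16.2 CPM in control. Its highest values were those of the IL-1β libraries, and no group overlapped another. It fell by 0.99 ± 0.05 on the log2 scale with SFRP5 against IL-1β (edgeR, adjusted p = 3.65e-14) and rose by 5.03 ± 0.06 with IL-1β against control (adjusted p = 2.63e-28), a 32.6-fold difference of means. The TNF receptors thus differed in which group was highest. Per kilobase, the ratio of Tnfrsf1b to Tnfrsf1a was 0.868, 0.795 and 0.860 with IL-1β and SFRP5, 2.27, 2.15 and 2.20 with IL-1β, and 0.111, 0.0859 and 0.103 in control. This ratio was chosen after its values were seen and carries no test. It lay above 1 in the IL-1β libraries and below 1 in the libraries of the other groups. The side of 1 depends on the gene lengths used, since in CPM Tnfrsf1b lay above Tnfrsf1a in the IL-1β+SFRP5 libraries too. The order of the groups in this ratio does not depend on these lengths.

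**Figure D3:**
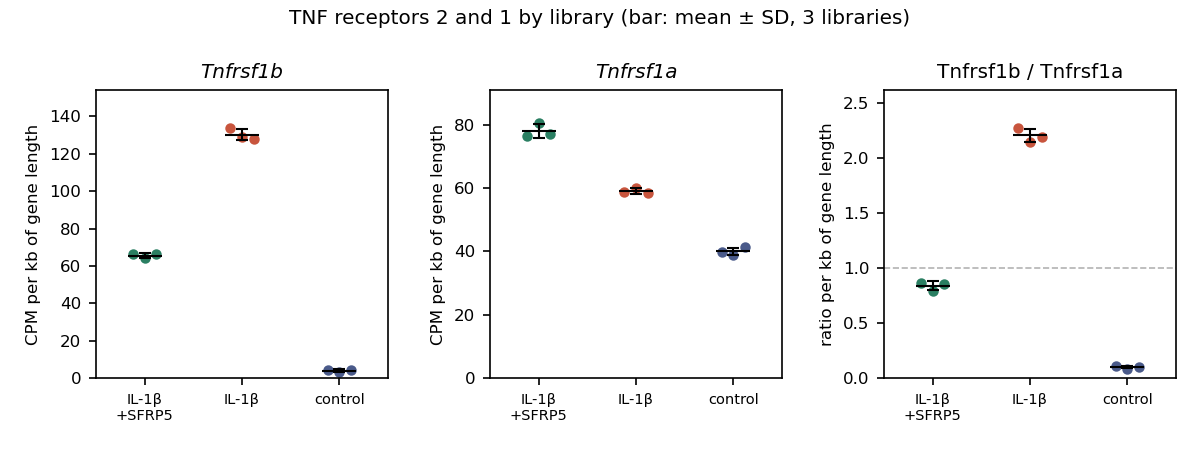
Levels of TNF receptor 2 (Tnfrsf1b) and TNF receptor 1 (Tnfrsf1a) in CPM per kb of gene length, and their ratio, in each library; points are libraries and bars show the mean ± SD of 3. Tnfrsf1b is highest with IL-1β at 130.3 CPM per kb, Tnfrsf1a is highest with IL-1β and SFRP5 at 77.97 CPM per kb, and the ratio exceeds 1 (dashed line) in the IL-1β libraries.

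Death receptor 6 (Tnfrsf21), known from nerve and immune cells, was at 50.8, 52.4 and 43.9 CPM with IL-1β and SFRP5, between 94.7 and 103 CPM in the 3 libraries with IL-1β, and at 20.0, 19.7 and 20.3 CPM in control. The 3 groups were well apart. It fell by 1.02 ± 0.06 on the log2 scale with SFRP5 against IL-1β (edgeR, adjusted p = 2.99e-13) and rose by 2.31 ± 0.06 with IL-1β against control (adjusted p = 2.04e-21). The TRAIL receptor gene Tnfrsf10b had a mean of 112 CPM with IL-1β and SFRP5, 118 CPM with IL-1β and 60.1 CPM in control. It rose by 0.97 ± 0.05 on the log2 scale with IL-1β (edgeR, adjusted p = 4.04e-16) and had a log2 fold change of −0.07 ± 0.04 with SFRP5 (adjusted p = 0.245). Tnfrsf25, which encodes DR3, the receptor of TL1A, was at 0.296, 0.195 and 0.177 CPM with IL-1β and SFRP5, at 0.365, 0.182 and 0 CPM with IL-1β, and at 2.02, 1.76 and 1.52 CPM in control. Control libraries were the highest, and the other groups overlapped near the level of 3 counts. Tnfrsf25 fell by 3.26 ± 0.51 on the log2 scale with IL-1β against control (edgeR, adjusted p = 2.98e-06). The ligand TL1A and its receptor DR3 lay in opposite directions in that comparison, Tnfsf15 higher and Tnfrsf25 lower with IL-1β. Both directions were favoured in advance. Tnfrsf25 reached the level needed for testing in control libraries only, and Tnfsf15 in treated libraries only.

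Of the 16 receptors without a death domain, 9 could be tested. With SFRP5 against IL-1β, 1 rose, 4 fell and 4 were not called, and with IL-1β against control 6 rose, 2 fell and 1 was not called, beside 15.6% and 15.7% of all tested genes that rose and fell with SFRP5 and 38.5% and 40.4% with IL-1β. Tnfrsf9, which encodes CD137, a costimulatory receptor of T cells, was at 46.5, 45.9 and 39.7 CPM with IL-1β and SFRP5, at 50.7, 47.4 and 50.4 CPM with IL-1β, and at 0.303, 0.136 and 0.102 CPM in control. Treated libraries of both kinds were far above control, and the IL-1β+SFRP5 libraries lay just below the IL-1β libraries. With IL-1β against control the log2 fold change was 8.06 ± 0.16 (edgeR, adjusted p = 3.92e-24), the largest of any tested member with at least 2 counts in control. With SFRP5 against IL-1β it was −0.17 ± 0.07 (adjusted p = 0.0683). Camta1, which lies on the other strand over this gene, had between 75 and 108 counts in every library.

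Cd40, the receptor of CD40 ligand on antigen-presenting cells, was at 0.345, 0.716 and 0.944 CPM with IL-1β and SFRP5, at 3.10, 2.97 and 1.65 CPM with IL-1β, and at 0, 0 and 0.0508 CPM in control. The groups did not overlap. It fell by 1.96 ± 0.39 on the log2 scale with SFRP5 against IL-1β (edgeR, adjusted p = 3.20e-04). Its IL-1β libraries held 129 counts and its control libraries 1, a ratio of 157 with a 95% counting interval of 27.7 to 6262 (adjusted p = 1.78e-09). Tnfrsf8, which encodes the lymphocyte receptor CD30, was at 0.296, 0.130 and 0.177 CPM with IL-1β and SFRP5, at 0.790, 0.666 and 0.740 CPM with IL-1β, and at 0, 0.0452 and 0 CPM in control. It was again highest with IL-1β, at 37 counts in sum. Its fall with SFRP5, −1.78 ± 0.54 on the log2 scale (edgeR, adjusted p = 0.0126), was lost without IL-1β+SFRP5 library 2 (adjusted p = 0.0582) or 3 (0.0548) and without the low-count filter (0.0519). The ratio of IL-1β to control counts, 37 to 1, was 45.1 with a 95% counting interval of 7.61 to 1830.

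Fn14 (Tnfrsf12a), the receptor of TWEAK, averaged 112 ± 1.73 CPM with IL-1β and SFRP5, 152 ± 0.624 CPM with IL-1β and 28.0 ± 0.569 CPM in control (SD, n = 3 each). It fell by 0.44 ± 0.04 on the log2 scale with SFRP5 against IL-1β (edgeR, adjusted p = 7.01e-09) and rose by 2.45 ± 0.05 with IL-1β against control (adjusted p = 1.59e-24). Its ligand Tnfsf12 stood between 2.12 and 3.66 CPM in all libraries. Ltbr, the lymphotoxin β receptor, was at 71.3 to 75.9 CPM with IL-1β and SFRP5, 63.7 to 67.2 CPM with IL-1β and 73.7 to 85.8 CPM in control. It rose by 0.17 ± 0.06 on the log2 scale with SFRP5 against IL-1β (edgeR, adjusted p = 0.0231) and fell by 0.29 ± 0.05 with IL-1β against control (adjusted p = 2.93e-05). The rise was lost in DESeq2 and without IL-1β library 1 or 3 or IL-1β+SFRP5 library 2, where the adjusted p reached 0.0951.

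Tnfrsf14, which encodes HVEM, a receptor of the ligand LIGHT, was low in all groups, with means of 0.640 CPM with IL-1β and SFRP5, 0.474 CPM with IL-1β and 1.31 CPM in control. It fell by 1.45 ± 0.39 on the log2 scale with IL-1β against control (edgeR, adjusted p = 0.00175) and was not called with SFRP5 (0.41 ± 0.45, adjusted p = 0.539). Tnfrsf26, a receptor gene next to Tnfrsf22 and Tnfrsf23 on mouse chromosome 7, was at 1.78, 2.28 and 1.00 CPM with IL-1β and SFRP5, at 2.01, 3.27 and 2.96 CPM with IL-1β, and at 0.404, 0.316 and 0.102 CPM in control. The treated groups overlapped each other and lay above control. E230032D23Rik, a long noncoding RNA on the other strand over Tnfrsf26, had 8 to 21 counts with IL-1β and SFRP5, 20 to 32 counts with IL-1β and 0 to 3 counts in control, so this value too is uncertain. The Tnfrsf26 log2 fold change was −0.71 ± 0.32 with SFRP5 (edgeR, adjusted p = 0.0966, and 0.0492 without IL-1β+SFRP5 library 2) and 3.29 ± 0.42 with IL-1β against control (adjusted p = 9.35e-08). Tnfrsf19, which encodes TROY, was between 0.182 and 0.944 CPM in all libraries and was not called in any comparison.

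The decoy receptors were all called with IL-1β against control, and all rose. With SFRP5 against IL-1β, Tnfrsf11b rose, Tnfrsf23 fell and Tnfrsf22 was not called. Tnfrsf23, a mouse decoy receptor for TRAIL, was at 201, 189 and 180 CPM with IL-1β and SFRP5, at 257, 258 and 259 CPM with IL-1β, and at 20.3, 19.7 and 19.96 CPM in control. The groups lay apart, with the IL-1β libraries the highest. It fell by 0.44 ± 0.04 on the log2 scale with SFRP5 (edgeR, adjusted p = 8.92e-09) and rose by 3.69 ± 0.05 with IL-1β against control (adjusted p = 1.95e-27). Tnfrsf22, the neighbouring TRAIL decoy, averaged 13.2 CPM with IL-1β and SFRP5, 13.5 CPM with IL-1β and 7.25 CPM in control, and rose by 0.89 ± 0.11 with IL-1β (adjusted p = 5.51e-08). Tnfrsf22, Tnfrsf23 and Tnfrsf26 are similar neighbouring paralogs, so the division of reads among them is uncertain.

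Osteoprotegerin (Tnfrsf11b), the secreted decoy that binds RANKL, was at 293, 292 and 298 CPM with IL-1β and SFRP5, at 228, 236 and 232 CPM with IL-1β, and at 188, 183 and 175 CPM in control. The groups were ordered without overlap. It rose by 0.35 ± 0.04 on the log2 scale with SFRP5 against IL-1β (edgeR, adjusted p = 1.62e-07), by 0.35 ± 0.04 with IL-1β against control (adjusted p = 1.62e-08) and by 0.70 ± 0.04 in IL-1β+SFRP5 libraries against control (adjusted p = 2.44e-14). The signalling receptor of RANKL, Tnfrsf11a or RANK, had 0, 0 and 4 counts with IL-1β and SFRP5, 6, 2 and 5 counts with IL-1β, and 9, 7 and 2 counts in control, and was too rare to be tested.

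RANKL and osteoprotegerin were also set against each other within each library. There were 21.0, 11.4 and 13.1 RANKL counts per 1000 osteoprotegerin counts with IL-1β and SFRP5, 13.4, 8.97 and 9.10 with IL-1β, and 0.537, 3.96 and 3.20 in control. Treated libraries of both kinds lay above control, and the treated groups overlapped. Cells of the osteoblast lineage are a known source of both transcripts, and the part of such cells was not tested. Of the tested markers listed for them, Sp7, Alpl, Ibsp, Bglap and Col1a1 fell with IL-1β against control, and Runx2 was not called. Sp7, Ibsp and Bglap reached the level needed for testing through the control libraries, which favoured their falls. The mean log2 ratio was −6.09 with IL-1β and SFRP5 and −6.59 with IL-1β, a difference of 0.50 (exact two-sided permutation test, p = 0.3). Between IL-1β and control, at a mean log2 ratio of −8.90, the difference was 2.32, and between IL-1β+SFRP5 and control it was 2.81 (exact permutation p = 0.1 each). With 3 libraries against 3, 0.1 is the smallest p this test can give. The control value rests on 2, 16 and 11 RANKL counts, and leaving out 1 library at a time gave differences of 1.50 to 2.80 between IL-1β and control, the lowest without control library 1. Between IL-1β+SFRP5 and IL-1β it gave 0.24 to 0.68, the lowest without IL-1β+SFRP5 library 1.

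**Figure D4:**
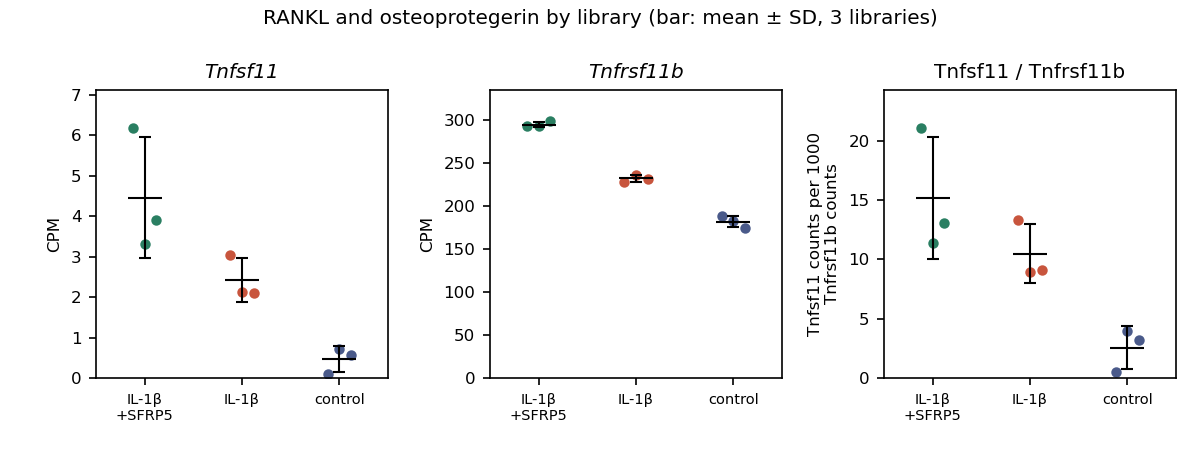
RANKL (Tnfsf11) and osteoprotegerin (Tnfrsf11b) in CPM and the number of RANKL counts per 1000 osteoprotegerin counts in each library; points are libraries and bars show the mean ± SD of 3. RANKL is between 2.11 and 6.16 CPM in treated libraries and at most 0.722 CPM in control, while osteoprotegerin is between 175 and 298 CPM in all 9.

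All 7 TRAFs, a family of adaptors, were tested. With SFRP5 against IL-1β, Traf2 rose, Traf1, Traf3 and Traf6 fell, and Traf4, Traf5 and Traf7 were not called. With IL-1β against control, Traf1, Traf2, Traf3, Traf6 and Traf7 rose, Traf4 fell and Traf5 was not called. Traf1, a partner of Traf2 that lacks the RING domain, was at 7.10, 8.13 and 5.84 CPM with IL-1β and SFRP5, at 35.9, 33.1 and 27.4 CPM with IL-1β, and at 1.01, 0.722 and 1.02 CPM in control. Its groups were far apart. It fell by 2.20 ± 0.12 on the log2 scale with SFRP5 against IL-1β (edgeR, adjusted p = 2.00e-13), a 4.58-fold lower mean, and rose by 5.13 ± 0.17 with IL-1β against control (adjusted p = 9.74e-20), a 35.1-fold higher mean.

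Traf2, a ubiquitin ligase adaptor that recruits the cIAP proteins to TNF receptors, was at 77.8, 74.0 and 78.4 CPM with IL-1β and SFRP5, at 63.6, 60.9 and 61.4 CPM with IL-1β, and at 18.9, 17.3 and 16.7 CPM in control. Here the IL-1β+SFRP5 libraries were the highest, without overlap. It rose by 0.31 ± 0.05 on the log2 scale with SFRP5 against IL-1β (edgeR, adjusted p = 3.37e-05) and by 1.81 ± 0.06 with IL-1β against control (adjusted p = 1.12e-19). Traf1 and Traf2 thus moved in opposite directions when SFRP5 was added.

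Traf3, which holds the kinase NIK at a low level and so restrains non-canonical NF-κB signalling, was at 66.3, 61.9 and 62.7 CPM with IL-1β and SFRP5, at 115, 109 and 111 CPM with IL-1β, and at 51.8, 55.2 and 53.6 CPM in control. The IL-1β libraries were the highest, and the IL-1β+SFRP5 libraries lay between the other groups, nearer to control. It fell by 0.81 ± 0.05 on the log2 scale with SFRP5 against IL-1β (edgeR, adjusted p = 6.83e-13), rose by 1.06 ± 0.05 with IL-1β against control (adjusted p = 1.21e-16) and was 0.25 ± 0.05 higher in IL-1β+SFRP5 libraries than in control (adjusted p = 6.20e-05). Traf6, the adaptor used by the IL-1 receptor itself as well as by RANK and CD40, averaged 72.3 CPM with IL-1β and SFRP5, 92.7 CPM with IL-1β and 24.6 CPM in control. Its log2 fold changes were −0.36 ± 0.05 with SFRP5 (edgeR, adjusted p = 1.44e-06) and 1.91 ± 0.05 with IL-1β against control (adjusted p = 2.36e-21).

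Traf4, an adaptor at cell junctions, averaged 13.03 CPM with IL-1β and SFRP5, 11.0 CPM with IL-1β and 18.1 CPM in control. It fell by 0.72 ± 0.09 on the log2 scale with IL-1β against control (edgeR, adjusted p = 1.31e-07). With SFRP5 its value was 0.25 ± 0.10 (adjusted p = 0.0553), and it was called without IL-1β library 1 and under upper-quartile scaling, where the adjusted p was as low as 0.0391. Traf7, which joins MAP kinase signalling, rose by 0.64 ± 0.05 with IL-1β against control (edgeR, adjusted p = 4.66e-12) and had a log2 fold change of −0.01 ± 0.05 with SFRP5 (adjusted p = 0.856). Traf5 stayed between 0.787 and 2.54 CPM in all libraries and was not called, except with SFRP5 when IL-1β library 1 was left out (adjusted p = 0.0290). A processed pseudogene overlapping Traf5, Gstp-ps, had more counts than Traf5 itself, so its value is uncertain.

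**Figure D5:**
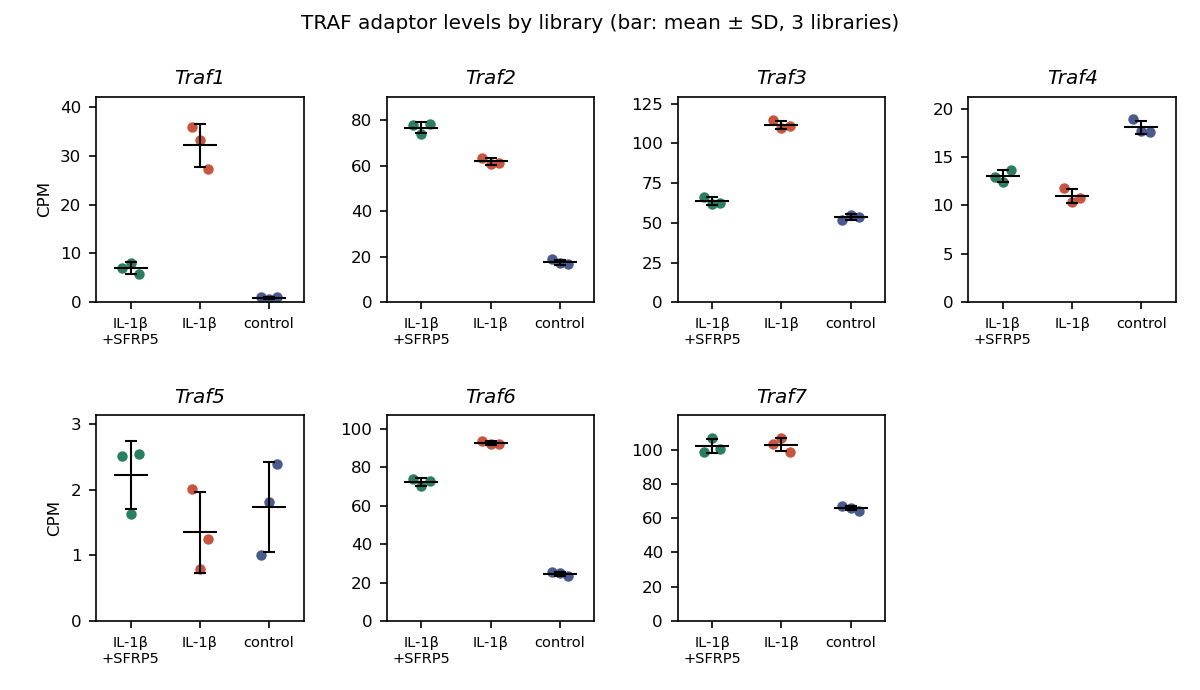
Levels of the 7 TRAF genes in CPM in each library, each panel with its own axis from 0; points are libraries and bars show the mean ± SD of 3. Traf1, Traf3 and Traf6 are highest with IL-1β, Traf2 with IL-1β and SFRP5, and Traf4 in control.

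Promoter windows were read for members from 250 bases before to 50 bases after the annotated start (RefSeq, mouse GRCm38.p6), and 35 of the 43 members had one. Each was searched on both strands for GGNNTTTCC, a form of the κB motif bound by NF-κB, and for TGANTCA, the AP-1 motif. A gene can have several starts and was counted once if any of its windows held the letters. Of all 20990 genes of the table with a window, 6.76% held the κB-type letters and 8.59% the AP-1 letters, and 5 and 6 of the 35 members did. Of the 23 members that rose with IL-1β, 16 had a window, of which 3 held the κB-type letters and 3 the AP-1 letters. Of the 12 that fell with SFRP5, 10 had a window, and 1 of these held each. The windows of 4 members are printed from 5′ to 3′ along the gene's strand, since these are Tnfrsf9, with the largest rise with IL-1β among members with at least 2 control counts, Traf1, with the largest fall of a TRAF, and Traf2 and Traf3, both with κB-type letters and opposite directions with SFRP5. Capitals mark the κB-type letters on either strand.
Tnfrsf9, chr4:150927749-150928048, plus strand: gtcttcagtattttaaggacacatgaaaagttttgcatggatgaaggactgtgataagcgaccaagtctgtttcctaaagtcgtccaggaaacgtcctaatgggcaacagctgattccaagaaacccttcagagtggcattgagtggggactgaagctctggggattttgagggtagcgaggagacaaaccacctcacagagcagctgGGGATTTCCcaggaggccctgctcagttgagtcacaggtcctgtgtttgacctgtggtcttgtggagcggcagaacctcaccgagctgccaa
Traf1, chr2:34961723-34962022, minus strand: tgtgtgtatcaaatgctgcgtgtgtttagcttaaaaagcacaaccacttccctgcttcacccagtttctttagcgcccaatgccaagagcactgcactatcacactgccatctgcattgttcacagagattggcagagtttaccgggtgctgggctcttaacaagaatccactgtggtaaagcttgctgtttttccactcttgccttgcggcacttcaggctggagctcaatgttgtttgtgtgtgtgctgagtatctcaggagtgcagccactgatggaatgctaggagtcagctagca
Traf2, chr2:25546891-25547190, minus strand: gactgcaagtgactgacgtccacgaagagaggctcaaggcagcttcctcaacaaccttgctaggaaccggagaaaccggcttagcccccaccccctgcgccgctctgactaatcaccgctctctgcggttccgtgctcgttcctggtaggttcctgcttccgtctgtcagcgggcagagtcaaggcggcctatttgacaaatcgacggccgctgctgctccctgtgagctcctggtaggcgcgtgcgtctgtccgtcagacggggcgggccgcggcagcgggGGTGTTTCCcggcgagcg
Traf3, chr12:111166120-111166419, plus strand: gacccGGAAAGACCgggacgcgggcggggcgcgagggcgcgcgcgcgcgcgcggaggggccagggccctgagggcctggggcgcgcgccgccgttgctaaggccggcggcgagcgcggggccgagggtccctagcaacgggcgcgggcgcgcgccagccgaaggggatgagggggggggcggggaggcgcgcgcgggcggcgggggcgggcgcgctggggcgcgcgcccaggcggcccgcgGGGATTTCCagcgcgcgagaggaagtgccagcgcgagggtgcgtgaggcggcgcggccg
In the Tnfrsf9 window, which belongs to the downstream of 2 annotated starts, the κB-type letters begin 42 bases before the start and AP-1 letters begin 15 bases before it, without overlapping. The window of the upstream start, chr4:150919905-150920204, held neither. In the Traf3 window the κB-type letters occur 245 bases before the start on the opposite strand and again 9 bases before it, and in the Traf2 window they begin 32 bases after the start. The Traf1 window held neither set of letters. A match is a description of these letters, not a measured binding site.

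The 13 members too rare to be tested had between 0 and 66 counts over all 9 libraries. Tnfrsf18, which encodes GITR, had the most, with 21 counts with IL-1β and SFRP5, 25 counts with IL-1β and 20 counts in control. An antisense long noncoding RNA over it, Gm16008, had 578 counts in all, so the Tnfrsf18 counts are uncertain. Tnfrsf4, which encodes OX40, the receptor of OX40L, had 8 counts with IL-1β and SFRP5, 2 counts with IL-1β and 33 counts in control. Its count with IL-1β was 13.5-fold lower than in control, with a 95% counting interval of 3.46 to 116, and no test was made. The B cell survival ligands Tnfsf13b (BAFF) and Tnfsf13 (APRIL) had 31 and 19 counts in all, and Tnfrsf13c, the BAFF receptor, had 8. The antisense RNA Tnfsf13os also overlaps Tnfsf13 and had 180 counts in all, so the Tnfsf13 counts are uncertain as well. Each of Tnfsf8, Tnfsf10, Tnfsf14, Cd27, Tnfrsf13b and Tnfrsf17 had at most 3 counts over the 9 libraries, and Tnfrsf17, a receptor of plasma cells, had none.

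The signalling genes below the receptors were followed in 3 lists of 55 genes, of which 50 were tested. Among 25 adaptors and effectors, none rose and 13 fell with SFRP5 against IL-1β, with a median log2 fold change of −0.21, and 19 rose and 1 fell with IL-1β against control, with a median of 0.78. The medians over all tested genes were 0.01 and −0.03, and 15.6% of them rose and 15.7% fell with SFRP5, against 38.5% and 40.4% with IL-1β. Birc3, which encodes the ubiquitin ligase cIAP2 that binds TRAF2, averaged 62.4 ± 3.22 CPM with IL-1β and SFRP5, 199 ± 13.1 CPM with IL-1β and 6.79 ± 0.474 CPM in control (SD, n = 3 each). It fell by 1.67 ± 0.05 on the log2 scale with SFRP5 (edgeR, adjusted p = 5.65e-18) and rose by 4.87 ± 0.07 with IL-1β against control (adjusted p = 3.26e-27). Nfkb2 and Map3k14, which encode the precursor and the NIK kinase of non-canonical NF-κB signalling, fell by 0.98 ± 0.05 and 0.69 ± 0.13 with SFRP5 (edgeR, adjusted p = 1.59e-14 and 1.59e-04). Mlkl, the effector of necroptosis, fell by 0.91 ± 0.09 with SFRP5 (edgeR, adjusted p = 1.01e-08) and rose by 3.45 ± 0.11 with IL-1β against control (adjusted p = 1.56e-19). Nfkb2 rose by 2.43 ± 0.05 and Relb, its partner subunit, by 2.39 ± 0.08 with IL-1β against control (adjusted p = 1.35e-23 and 7.04e-20). Xiap, an inhibitor of caspases, was the 1 gene of this list that fell with IL-1β, by 0.39 ± 0.05 (adjusted p = 3.16e-07).

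A list of 20 brakes and ubiquitin editors also holds Sharpin, Rnf31 and Rbck1, subunits of the linear ubiquitin ligase complex, which adds to signalling at TNF receptor 1. Of the 20, 3 rose and 9 fell with SFRP5 against IL-1β, and 12 rose and 6 fell with IL-1β against control, with median log2 fold changes of −0.08 and 0.73. The 3 that rose with SFRP5 are near the 15.6% of all tested genes, where 15.7% fell, and the 6 that fell with IL-1β are fewer than the 40.4% of all tested genes, where 38.5% rose. Tnfaip3, the gene of the ubiquitin-editing protein A20, averaged 118 ± 6.04 CPM with IL-1β and SFRP5, 333 ± 16.7 CPM with IL-1β and 1.62 ± 0.187 CPM in control, and fell by 1.49 ± 0.05 on the log2 scale with SFRP5 (edgeR, adjusted p = 5.65e-18). Nfkbia and Nfkbie, inhibitors that hold NF-κB in the cytoplasm, fell by 0.90 ± 0.04 and 0.60 ± 0.15, and Usp18, a protease of the ubiquitin-like protein ISG15, by 1.19 ± 0.31 (edgeR, adjusted p = 1.59e-14, 0.00295 and 0.00480). Zc3h12a, a nuclease for cytokine mRNAs, averaged 155 ± 5.01 CPM with IL-1β and SFRP5, 152 ± 2.37 CPM with IL-1β and 4.19 ± 0.904 CPM in control. Its log2 fold change with SFRP5 was 0.03 ± 0.05 (edgeR, adjusted p = 0.737). The members of this list that rose with SFRP5 were N4bp1, Sharpin and Trafd1, by 0.26 ± 0.06, 0.41 ± 0.12 and 0.27 ± 0.06 (adjusted p = 0.00230, 0.00862 and 0.00133).

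Of 10 relatives of the family whose symbols do not follow the naming rule, 5 were tested. The ectodysplasin receptor Edar, known from hair and tooth development, had 0.740, 0.651 and 0.236 CPM with IL-1β and SFRP5, 0 CPM in all 3 IL-1β libraries, and 6.52, 6.91 and 6.09 CPM in control. The 3 groups did not overlap. With 3 counts allowed for the IL-1β group, the 29 Edar counts with IL-1β and SFRP5 were 9.29-fold above IL-1β alone (edgeR, adjusted p = 8.66e-05). On the same terms, IL-1β alone was 110-fold below the 402 counts of control (edgeR, adjusted p = 5.06e-13). Both folds leave out the counting error of the higher group. Its ligand Eda averaged 3.84 ± 0.621 CPM with IL-1β and SFRP5, 2.02 ± 0.513 CPM with IL-1β and 5.66 ± 0.611 CPM in control. Eda rose by 0.93 ± 0.22 on the log2 scale with SFRP5 (edgeR, adjusted p = 0.00178) and fell by 1.48 ± 0.21 with IL-1β against control (adjusted p = 4.17e-07). Ngfr, the p75 neurotrophin receptor, fell by 3.37 ± 0.47 with IL-1β against control (edgeR, adjusted p = 4.74e-07), and Relt and Eda2r rose by 1.28 ± 0.22 and 0.97 ± 0.07 (adjusted p = 1.29e-05 and 3.43e-12). Ngfr reached the level needed for testing in control libraries only. Edar reached it in all control libraries, in part of the IL-1β+SFRP5 libraries and in no IL-1β library. The falls of Ngfr and Edar with IL-1β were therefore favoured in advance. Fasl, the ligand of Fas, had 0 counts with IL-1β and SFRP5, 3 counts with IL-1β and 0 counts in control, Cd70 had 1 count in all, and Cd40lg, the ligand of CD40, had none in any library.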

How the data were processed

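RNA sequencing was made in 9 libraries of wild-type mouse chondrocytes, 3 per group, grouped by the treatment label. Per the labels' protocols, directional NEBNext libraries were read as pairs, trimmed with fastp, aligned to mm10 by STAR and quantified by RSEM, with no versions in the submitters' processing notes. The authors deposited whole-number gene counts, unscaled between libraries, with a gene length. How the RSEM estimates were rounded, and whether strand was used, the sources do not give. The table's gene starts lay inside the GRCm38.p6 promoter windows of 0 of 35 members, so its positions are of another annotation build; they are not printed and served only to find overlapping genes within the table.

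Counts were analysed with edgeR 4.0.16 in R 4.3.3: filterByExpr by group, TMM factors, 1 mean per group, 1 quasi-likelihood fit over all 9 libraries, checked on simulated data. Standard errors are the log2 fold change divided by the square root of the F statistic. CPM used TMM-scaled totals. Against a group at 0 counts, a fold allows 3 counts over that group and leaves out the counting error of the other group. A group with 1 to 3 counts gives a ratio with an exact 95% interval that covers counting error only. All 3 pairs of groups were compared.

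The members and lists were chosen with earlier results of these data known. Library values are given for members called in a comparison and among its 12 largest changes, and always for Tnf, Tnfrsf1a, Tnfrsf1b, Fas, Cd40, Tnfsf11, Tnfrsf11a, Tnfrsf11b, Traf1 and Traf2. At most 4 called genes of a signalling list are named by size of change. Other members are given by group means, ranges and counts. The list genes Xiap, N4bp1, Sharpin, Rnf31, Rbck1, Trafd1 and Eda2r are named beside them, chosen after their values were seen. Alternatives were RLE and upper-quartile factors, DESeq2 1.42.0, no filter, robust dispersion, 6-library fits, a replicate block and leaving out each library.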

Additional observations from a re-analysis of the deposited data

How the results depend on the processing

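Over the alternatives run, the number of members that rose with SFRP5 against IL-1β was 4 to 7 and the number that fell 10 to 12, and with IL-1β against control 23 to 24 rose and 5 to 6 fell. In IL-1β+SFRP5 libraries against control, 19 to 24 rose, and no member that rose in the main fit lost its call where it was tested. Cd40, Tnfsf4, Tnfsf18 and Tnfrsf8 were tested in 15 of 16 alternatives. These members needed the libraries with IL-1β alone to pass the low-count filter. The 5 that fell in IL-1β+SFRP5 libraries against control became 2 in DESeq2 and 2 to 5 when 1 library was left out, with 3 without control library 3, 3 without IL-1β+SFRP5 library 2 and 2 without IL-1β+SFRP5 library 3. In that comparison Ltbr lost its call in 12 of 16 alternatives, Tnfrsf14 in 5 and Tnfsf12 in 5, and the cause was not tested. With SFRP5 against IL-1β, leaving out 1 library turned the sign of the log2 fold change of 6 members, none of them called. The ranges were −0.26 without IL-1β library 3 to 1.30 without IL-1β library 1 for Tnfrsf25, −0.13 to 0.051 for Tnfsf9, −0.84 to 0.14 for Tnfrsf19, −0.099 to 0.012 for Tnfrsf22, −0.054 to 0.089 for Tnfsf12 and −0.047 to 0.014 for Traf7. In IL-1β+SFRP5 libraries against control, Tnfrsf19, not called, ranged from −0.073 to 1.02. Over the 30 tested members and 3 comparisons, 1374 of 1431 log2 fold changes under an alternative kept direction and side of the threshold, 43 lost the call, 4 gained it and 10 turned sign. With the replicate block, 6 members rose and 12 fell with SFRP5 against IL-1β, and 23 rose and 5 fell with IL-1β against control, as without it. Libraries with the same number did not deviate together in all pairs (correlations of −0.13 to 0.25). Between IL-1β and IL-1β+SFRP5 libraries, the correlations were 0.12, 0.06 and 0.25 at the same number and −0.26 to 0.17 at different numbers. Whether the numbers mark a shared culture or batch was not tested, and the labels do not say. Members under about 0.2 CPM are limited by counts.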
